A study of Mus musculus with 4 samples.

Results

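The 10 genes followed here mark the oligodendrocyte precursor, the dividing cell from which myelinating oligodendrocytes arise, and were measured in mouse neural progenitor cells with and without depletion of Rybp. The genes were chosen by name as known genes of the lineage, with earlier results of these data known, as transcription factors (Olig1, Olig2, Sox8, Sox10 and Nkx2-2), surface and membrane proteins (Pdgfra, Cspg4, Gpr17 and Lhfpl3) and an early myelin enzyme (Cnp). All 10 were found among the 13881 genes of the table, and all 10 passed the filter on low values. The cells came from the forebrain of C57bl/6 embryos at embryonic day 14 and were expanded with 2% B27 (minus vitamin A), EGF and FGF-2 (20 ng/ml each). The ctrl group has 2 libraries, labelled only as ctrl for the shRNA, and the shRybp group has 2 libraries of cells infected with a lentivirus that expresses an shRNA against Rybp. Nothing in the labels says that the 2 libraries of a group came from separate cultures or animals, so every p-value here rests on a spread that may be only technical.

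Olig2 directs progenitors into the oligodendrocyte lineage and is also made by dividing forebrain progenitors that are not committed to it. Sox10 acts after Olig2 and is kept from the precursor stage through myelination, with Sox8 as its close relative. Precursors divide in response to platelet-derived growth factor through the receptor encoded by Pdgfra, carry the proteoglycan NG2 encoded by Cspg4, and pass through a committed stage at which the receptor gene Gpr17 is at its height.

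Library totals were between 14355308 and 17598873 counts. Levels are given as FPKM, counts scaled for gene length and library size, so they can be compared between genes. Rybp itself was at 4.43 and 3.95 FPKM in the ctrl libraries and at 3.01 and 2.66 in the shRybp libraries (edgeR adjusted p = 0.0017 for a log2 fold change of -0.60). The progenitor genes Nes and Sox2 were high in all 4 libraries, at 145 to 244 FPKM for Nes and 98.3 to 138 FPKM for Sox2. Within these ranges Nes rose in shRybp (log2 fold change 0.67) and Sox2 fell (-0.46).

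The precursor genes separated into 6 that fell and 4 that did not pass the threshold, and none rose. In shRybp 6 of the 10 fell, namely Gpr17, Sox10, Pdgfra, Cnp, Sox8 and Lhfpl3 (edgeR quasi-likelihood test, Benjamini-Hochberg adjusted p under 0.05), against 16.7% of all 12062 genes tested that fell. Olig1, Olig2, Nkx2-2 and Cspg4 did not pass. Over all genes tested, 33.0% passed in either direction and 16.3% rose. The median log2 fold change of the 10 genes was -0.50, beside 0.00 over all genes tested. Falls of 2-fold or more were seen for 3 of the 10, against 1.21% of all genes tested. In RNA from a whole culture, fewer cells of a type and less RNA per cell cannot be told apart.

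**Figure D1:**
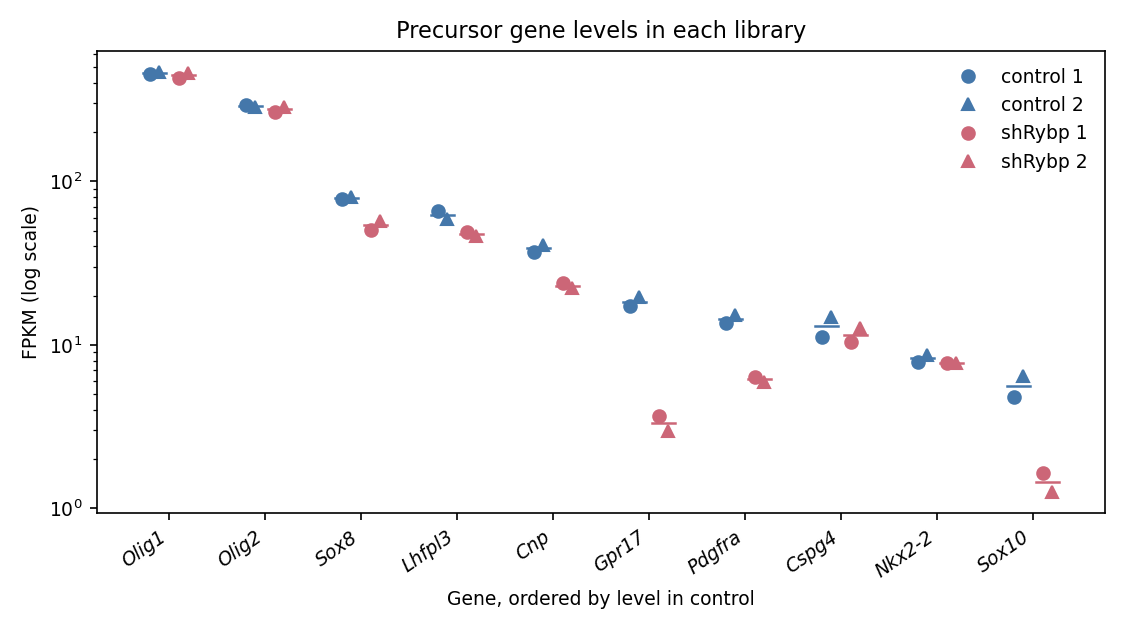
FPKM of each precursor gene in each library on a log axis, with ctrl in blue, shRybp in red, replicate 1 as circles, replicate 2 as triangles and short lines at the group means. Olig1 and Olig2 were at or above 267 FPKM in every library. Both shRybp libraries lay below both ctrl libraries for 8 of the 10 genes, Gpr17, Pdgfra and Sox10 among them. The same held for 29.0% of all genes tested.

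The order of the levels differed between the groups. In ctrl it ran from Olig1 (462 ± 8.86 FPKM, SD, n = 2) through Olig2, Sox8, Lhfpl3, Cnp, Gpr17, Pdgfra, Cspg4 and Nkx2-2 down to Sox10 (5.60 ± 1.16 FPKM, SD, n = 2). Of these neighbours only Pdgfra and Cspg4 overlapped in their ctrl libraries. In shRybp the first 5 places were the same, but Gpr17 and Pdgfra came after Cspg4 and Nkx2-2, and no neighbours overlapped.

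Start regions of 4 members are shown because Rybp belongs to variant Polycomb complexes that are recruited to CpG-rich DNA, so the CpG content at the start of genes that fell and of genes that did not is part of their description. RefSeq promoter entries (GRCm38.p6) were read for 7 members, Olig2, Sox8, Nkx2-2, Pdgfra, Cspg4, Lhfpl3 and Cnp. Each sequence below is the part of the 250 bases before the RefSeq start that lies outside annotated exons, 5′ to 3′ on the strand of the gene, with CpG dinucleotides in capitals. Pdgfra and Cnp fell, and Olig2 and Cspg4 were not past the threshold. The positions are chr5:75152001-75152250 for Pdgfra, chr11:100574689-100574903 for Cnp, chr16:91225300-91225456 for Olig2 and chr9:56864854-56865032 for Cspg4, all on the plus strand.
Pdgfra: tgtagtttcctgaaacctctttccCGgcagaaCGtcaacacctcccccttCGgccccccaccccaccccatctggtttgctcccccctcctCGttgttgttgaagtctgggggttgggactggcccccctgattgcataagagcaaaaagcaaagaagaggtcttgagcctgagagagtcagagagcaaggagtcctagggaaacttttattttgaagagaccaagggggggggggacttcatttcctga
Cnp: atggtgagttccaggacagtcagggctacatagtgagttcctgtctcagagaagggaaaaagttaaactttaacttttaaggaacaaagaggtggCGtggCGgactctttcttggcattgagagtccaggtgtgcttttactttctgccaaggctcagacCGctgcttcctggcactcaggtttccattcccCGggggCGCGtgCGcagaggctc
Olig2: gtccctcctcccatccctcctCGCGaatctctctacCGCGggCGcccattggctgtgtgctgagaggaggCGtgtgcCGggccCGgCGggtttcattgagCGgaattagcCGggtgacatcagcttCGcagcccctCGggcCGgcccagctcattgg
Cspg4: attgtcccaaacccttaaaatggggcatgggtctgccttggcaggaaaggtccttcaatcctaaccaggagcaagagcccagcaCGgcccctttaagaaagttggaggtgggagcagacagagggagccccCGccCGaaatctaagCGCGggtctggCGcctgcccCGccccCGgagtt

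The full 250 bases held 4 CpG dinucleotides before Pdgfra, 13 before Cnp, 22 before Olig2 and 12 before Cspg4, beside a median of 6 over 32851 RefSeq promoters. A CpG count at least that high was found in 62.2% of promoters for Pdgfra, 31.5% for Cnp, 14.8% for Olig2 and 33.5% for Cspg4. Among the other members read, the count was 18 for Sox8, which fell, 11 for Lhfpl3, which fell, and 8 for Nkx2-2, which did not pass. Of the 7 counts, that of Pdgfra was the only one under the median. No count is given here for Olig1, Sox10 or Gpr17. Gpr17 and Sox10 had the largest falls among the members, so the counts do not cover the steepest falls.

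Short motifs were searched on both strands of the same windows, and no match overlapped another in these genes. The E-box CAGCTG, its own reverse complement and of the kind bound by factors such as Olig2, occurred at 2 places before Lhfpl3 (149 and 158 bases before the start) and in 13.0% of all promoters. The E-box CATCTG began 182 bases before the RefSeq start of Pdgfra and 220 bases before that of Nkx2-2, and was found in 14.4% of promoters. The Nkx2-2 window, chr2:147186403-147186652, lies inside the span given here for that gene and not before it. The SOX motif ACAAAG began 167 bases before the start of Cnp (16.5% of promoters), and the SOX motif ACAATG and the TATA motif TATAAA were found before Olig2, 68 and 8 bases from the RefSeq start (10.7% and 12.4% of promoters). Both Olig2 matches lie in the 93 bases that GENCODE annotates as exon, after the gene start given for it here. Both Lhfpl3 matches lie before the gene start given here for Lhfpl3, in bases that are annotated as exon too. None of these Olig2 and Lhfpl3 matches is in a printed sequence. Sox8 and Cspg4 held none of these letters in the window.

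Of the transcription factors, the basic helix-loop-helix pair Olig1 and Olig2 was by far the most abundant. Olig1 (ENSMUSG00000046160, mm10 chromosome 16, 91269772 to 91271933, plus strand) was at 456 and 468 FPKM in ctrl and at 429.5 and 463 FPKM in shRybp, and the groups overlapped. Its log2 fold change was -0.08 (95% interval -0.23 to 0.06, adjusted p in edgeR 0.351). Olig2 (ENSMUSG00000039830, chromosome 16, 91225457 to 91228677, plus strand) ends 41.1 kb before Olig1 on the same strand.

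Olig2 was at 294 and 287 FPKM in ctrl and at 267 and 286 FPKM in shRybp, with shRybp 2 just under the lower ctrl library. Its log2 fold change was -0.11 (95% interval -0.24 to 0.03, adjusted p in edgeR 0.234). The level of Olig1 was 155% and 163% of that of Olig2 in the ctrl libraries and 161% and 162% in the shRybp libraries, so the balance of the pair in shRybp lay within the range of the ctrl libraries. The intervals leave room for falls of up to 0.23 and 0.24 on the log2 scale for Olig1 and Olig2.

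Nkx2-2 (ENSMUSG00000027434, chromosome 2, 147177546 to 147194243, minus strand), a homeodomain factor that promotes oligodendrocyte differentiation, was at 7.83 and 8.67 FPKM in ctrl and at 7.76 and 7.75 FPKM in shRybp. Both shRybp libraries lay below both ctrl libraries, by little, and the gene was not past the threshold (edgeR adjusted p = 0.338 for a log2 fold change of -0.12 with a 95% interval of -0.33 to 0.08). Groups apart in this direction were common, with 8 of the 10 members and 29.0% of all genes tested. Nkx2-2os, an antisense gene on the opposite strand, shares 278 bases (9.67%) of the exons of Nkx2-2. It was at 0.322 FPKM or less in every library and was too low to test.

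The SoxE factors Sox8 and Sox10, which share a DNA-binding domain and overlap in function in glia, both fell, Sox10 more steeply. Sox10 (ENSMUSG00000033006, chromosome 15, 79154908 to 79165240, minus strand) was at 4.78 and 6.42 FPKM in ctrl and at 1.64 and 1.26 FPKM in shRybp, from 257, 313, 72 and 63 counts. Both shRybp libraries were far below both ctrl libraries. The level was 25.2% of ctrl (edgeR adjusted p = 7.08e-06 for a log2 fold change of -1.99 ± 0.18, SE), the fifth largest fall among the 12062 genes tested.

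Sox8 (ENSMUSG00000024176, chromosome 17, 25565892 to 25570686, minus strand) was at 77.6 and 79.8 FPKM in ctrl and at 50.6 and 57.1 FPKM in shRybp. The groups did not overlap, and the level was 66.8% of ctrl (edgeR adjusted p = 4.45e-05 for a log2 fold change of -0.58 ± 0.07, SE). Sox10 stood at 6.16% and 8.06% of the level of Sox8 in the ctrl libraries and at 3.24% and 2.20% in the shRybp libraries. With 2 libraries against 2, an exact two-sided permutation test of this ratio cannot give a p below 0.333.

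Sox8 overlaps Cerox1, a long non-coding RNA gene on the opposite strand, over 329 bases of its exons (10.6%). Cerox1 was at 12.7 and 14.9 FPKM in ctrl and at 9.07 and 8.28 FPKM in shRybp, and it fell too (edgeR adjusted p = 0.000235 for a log2 fold change of -0.71 ± 0.10, SE). The sources used here do not say whether counting used strand, so reads in the shared stretch cannot be assigned to one of the pair.

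Of the surface proteins, Gpr17, a G protein-coupled receptor of precursors that are about to differentiate, had the second largest fall of all genes tested. Gpr17 (ENSMUSG00000052229, chromosome 18, 31942997 to 31949636, minus strand) was at 17.2 and 19.5 FPKM in ctrl and at 3.67 and 2.96 FPKM in shRybp, from 1576, 1616, 274 and 253 counts. Both shRybp libraries were far below the ctrl libraries, and the level was 17.6% of ctrl (edgeR adjusted p = 1.97e-08 for a log2 fold change of -2.51 ± 0.11, SE).

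Lims2, a focal adhesion adaptor gene, spans Gpr17 on the opposite strand and shares 188 bases with its exons (3.62%). It was at 1.65 and 2.07 FPKM in ctrl and at 0.432 and 0.418 FPKM in shRybp, and it fell as well (edgeR adjusted p = 3.86e-05 for a log2 fold change of -2.16 ± 0.24, SE). Its level was 9.59% and 10.6% of that of Gpr17 in ctrl and 11.8% and 14.1% in shRybp. How many of the Lims2 reads belong to Gpr17 was not tested.

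Pdgfra (ENSMUSG00000029231, chromosome 5, 75152292 to 75198215, plus strand), the receptor through which PDGF drives precursor division, was at 13.7 and 15.1 FPKM in ctrl and at 6.38 and 5.91 FPKM in shRybp. The groups were well apart, and the level was 41.7% of ctrl (edgeR adjusted p = 2.42e-07 for a log2 fold change of -1.26 ± 0.07, SE). Gpr17 was at 126% and 129% of the level of Pdgfra in the ctrl libraries but at 57.5% and 50.1% in the shRybp libraries.

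Cspg4 (ENSMUSG00000032911, chromosome 9, 56865033 to 56899870, plus strand), which encodes the NG2 proteoglycan and is used with Pdgfra to recognise precursors, was at 11.2 and 14.9 FPKM in ctrl and at 10.3 and 12.6 FPKM in shRybp. The groups overlapped, and in both groups replicate 2 was the higher library. Cspg4 was not past the threshold (edgeR adjusted p = 0.161 for a log2 fold change of -0.22 with a 95% interval of -0.46 to 0.03). It passed without ctrl replicate 1 (edgeR adjusted p = 0.00092 for a log2 fold change of -0.40) and without shRybp replicate 2 (-0.37, edgeR adjusted p = 0.0239), and with the replicate number as a block at nearly the same size (-0.22, edgeR adjusted p = 0.00179). The level of Pdgfra was 122% and 102% of that of Cspg4 in ctrl and 61.7% and 46.9% in shRybp.

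Lhfpl3 (ENSMUSG00000106379, chromosome 5, 22746059 to 23275597, plus strand), a membrane protein gene of the LHFPL family used as a precursor marker, had the smallest fall among the 6. It was at 65.7 and 59.2 FPKM in ctrl and at 49.3 and 46.3 FPKM in shRybp, with the groups apart (edgeR adjusted p = 0.000597 for a log2 fold change of -0.42 ± 0.07, SE). Of its exons, 17.6% are shared with A930003O13Rik, a non-coding gene on the opposite strand that was at 0.765 FPKM or less in every library.

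Cnp (ENSMUSG00000006782, chromosome 11, 100574904 to 100591729, plus strand) encodes 2′,3′-cyclic nucleotide phosphodiesterase, an enzyme made from the precursor stage onward and kept in myelin. It was at 37.1 and 40.7 FPKM in ctrl and at 23.8 and 22.1 FPKM in shRybp, clearly apart, and the level was 57.6% of ctrl (edgeR adjusted p = 5.37e-06 for a log2 fold change of -0.80 ± 0.07, SE). Its 3′ part overlaps Dnajc7, a chaperone gene on the opposite strand, over 4.23% of its exons. Dnajc7 was at 42.3 and 42.2 FPKM in ctrl and at 39.3 and 40.3 FPKM in shRybp without passing the threshold (edgeR adjusted p = 0.131 for a log2 fold change of -0.12).

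**Figure D2:**
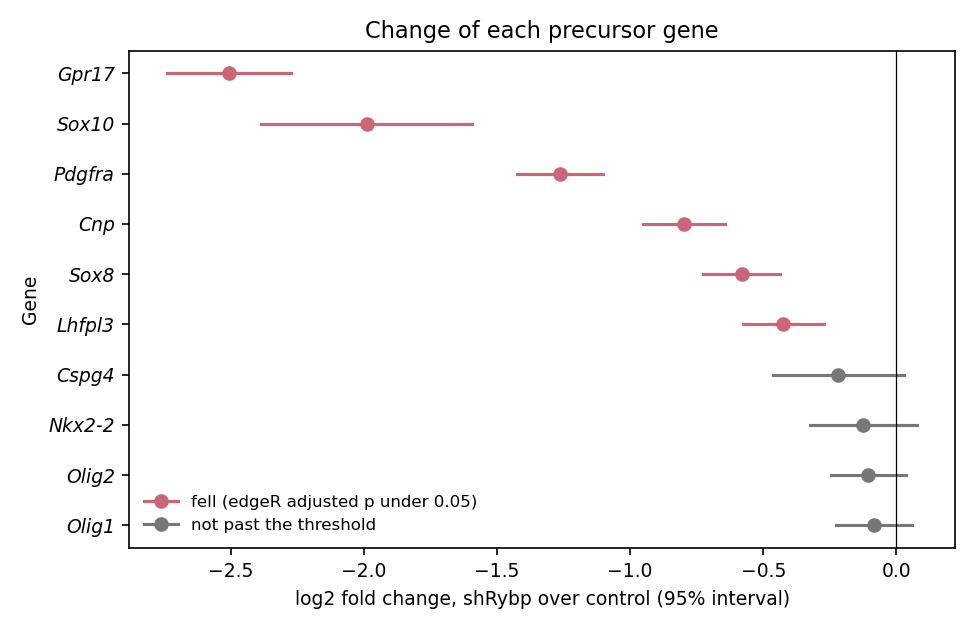
The log2 fold change of each precursor gene, shRybp over ctrl, with its 95% interval, in red for genes that fell and grey for genes not past the threshold. Gpr17, Sox10 and Pdgfra lie beyond -1, and the intervals of Cspg4, Nkx2-2, Olig2 and Olig1 cross 0.

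Some transcripts of mature myelin differed more between the libraries of a group than between the groups. Mal, a myelin lipid raft protein gene, was at 0.408 and 4.37 FPKM in ctrl 1 and ctrl 2 and at 5.51 and 0.131 FPKM in shRybp 1 and shRybp 2. It was thus high in ctrl 2 and shRybp 1 and low in the other two.

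Mog, a surface protein gene of the outermost myelin, was at 1.54 FPKM in ctrl 2 and 1.88 FPKM in shRybp 1 and is listed at 0 in the other two. Of the 23 genes read from a list of 26 mature oligodendrocyte genes, 7 (Apod, Ermn, Mag, Mal, Mbp, Mobp and Mog) were more than 2-fold higher in both ctrl 2 and shRybp 1 than in both other libraries. That holds for 16 genes, or 0.115%, of the whole table. The comparison was made after this pattern was seen.

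By order alone, with no minimum difference, both ctrl 2 and shRybp 1 lay above both other libraries for 12 of the 23 mature genes, for 0 of the 10 precursor genes and for 7.46% of the whole table, so the count of the precursor genes was near that of genes in general. The microglia markers Csf1r and Fcrls did share the myelin pattern, at 0.51 and 0.483 FPKM in ctrl 2 and 0.53 and 0.655 FPKM in shRybp 1, against at most 0.0393 FPKM in the other libraries. P2ry12, also a microglia marker, was at 0.134 to 0.622 FPKM. The other 7 of the 10 microglia markers listed were not in the table and so were not analysed here. Summed over the 3 microglia genes the level was 0.173 to 1.44 FPKM in ctrl and 0.632 to 1.62 FPKM in shRybp.

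Gpr17, Sox10, Pdgfra and Cnp were somewhat higher in ctrl 2 than in ctrl 1 and in shRybp 1 than in shRybp 2, the order in which the myelin genes ran. The differences of these 4 genes were close in size between the libraries with low and the libraries with high myelin transcripts. Between ctrl 1 and shRybp 2 alone, with no test, the log2 difference of library-scaled counts was -2.58 for Gpr17, -1.97 for Sox10, -1.25 for Pdgfra and -0.79 for Cnp. Between ctrl 2 and shRybp 1 it was -2.43, -1.99, -1.27 and -0.80. The pairs differed more for the other genes that fell, with -0.49 and -0.68 for Sox8 and -0.55 and -0.29 for Lhfpl3. For Cspg4 the same pairs gave 0.12 and -0.55, in opposite directions.

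**Figure D3:**
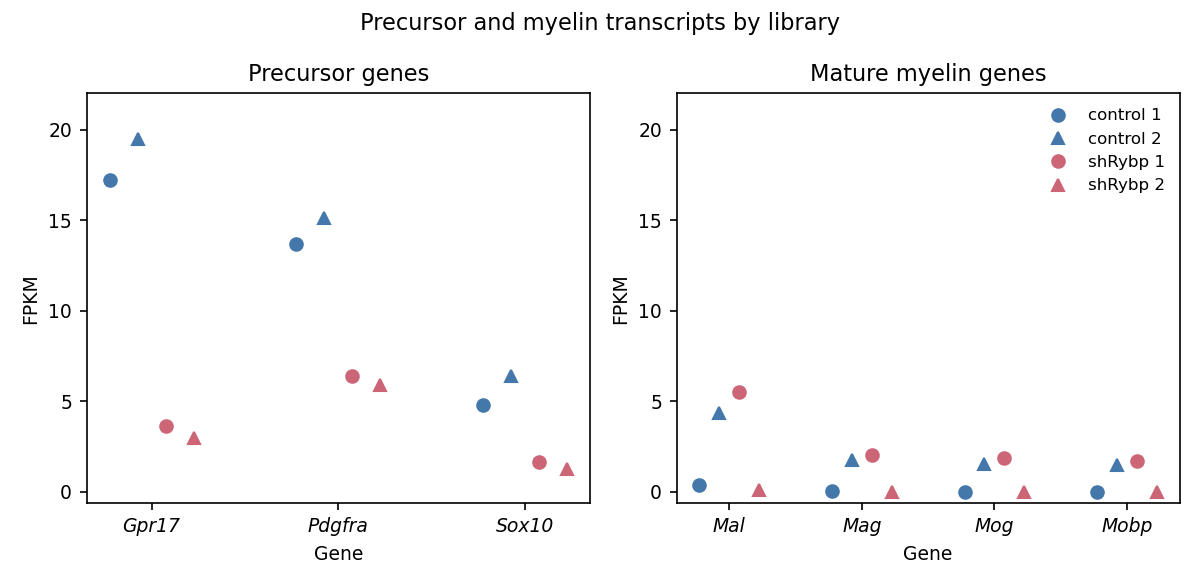
FPKM in each library of 3 precursor genes (left) and 4 mature myelin genes (right), with ctrl in blue, shRybp in red, replicate 1 as circles and replicate 2 as triangles. The precursor genes separate by group, whereas the myelin genes are high in ctrl 2 and shRybp 1, with Mal at 4.37 and 5.51 FPKM, and low in the other libraries.

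Of the 14 mature oligodendrocyte genes that were tested, 5 fell, 3 rose and 6 did not pass, with a median log2 fold change of -0.24. Over all genes tested, 16.7% fell and 16.3% rose. Those that fell most were Plekhb1 (-1.61), the lysophospholipase gene Enpp2 (-1.26) and the deacetylase gene Sirt2 (-0.70), all of which are made by other neural cells too. Nkx6-2 (0.81), the iron carrier gene Trf (0.55) and the pteridine reductase gene Qdpr (0.33) rose. Mbp, a structural myelin protein gene, had a log2 fold change of -0.40 ± 0.48 (SE, adjusted p in edgeR 0.564), with a wide error beside the unlike replicates. Without shRybp replicate 1 the number that fell was 8. The direction of Mbp depended on the library left out. Mbp passed as a fall without shRybp replicate 1 (-1.95) and without ctrl replicate 1 (-0.86), and did not pass, with a value above 0, without ctrl replicate 2 (0.25) and without shRybp replicate 2 (0.37).

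Among other genes of the precursor stage, falls outnumbered rises. Of 23 tested from a list of 29, 13 fell, 1 rose and 9 did not pass, with a median log2 fold change of -0.37. The shares over all genes tested were 16.7% that fell and 16.3% that rose. C1ql1, a secreted synaptic organiser gene of precursors, fell from 2.07 ± 0.20 to 0.761 ± 0.21 FPKM (SD, n = 2; edgeR adjusted p = 0.0022 for a log2 fold change of -1.45 ± 0.29, SE). The transcriptional repressor gene Zfp488, which promotes oligodendrocyte differentiation, fell from 2.80 ± 0.06 to 1.33 ± 0.003 FPKM (log2 fold change -1.11), and the matrix protein gene Tnr fell by 1.02 on the log2 scale.

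Nkx6-2, which stands in this list too, rose from 0.81 ± 0.03 to 1.47 ± 0.04 FPKM and lost the call when any 1 library was left out (edgeR adjusted p = 0.0789 to 0.113) and in DESeq2 (adjusted p = 0.211). Sox5 and Sox6, which hold precursors undifferentiated, had log2 fold changes of -0.14 (edgeR adjusted p = 0.0992, and 0.0263 with the replicate block) and -0.34 (edgeR adjusted p = 0.00105).

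Regulators of oligodendrocyte specification and differentiation were split. Of 24 tested, 10 fell, 3 rose and 11 did not pass, with a median log2 fold change of -0.07. Beside these counts, 16.7% of all genes tested fell and 16.3% rose. The Notch effector gene Hes5 and the inhibitor gene Id4, which both hold back differentiation, fell by 1.79 and 1.24 on the log2 scale, and Sox9, the third SoxE factor and one that precedes Sox10 in glial specification, fell by 0.34. Hes1, another Notch effector gene, did not pass (log2 fold change 0.14, adjusted p in edgeR 0.274). Those that rose were Gli3 (0.38), the histone deacetylase gene Hdac1 (0.25) and Tcf3 (0.25), which encodes a partner of basic helix-loop-helix factors. The number that fell was 6 without ctrl replicate 1 and 3 without shRybp replicate 2, and each of the 3 rises was lost without at least 1 library, those of Gli3 and Tcf3 also in DESeq2 and in each of the limma fits.

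Among PDGF and Hedgehog signalling genes, 3 of 13 tested fell, 1 rose and 9 did not pass, with a median log2 fold change of -0.05. Over all genes tested the shares were 16.7% that fell and 16.3% that rose. The ligand gene Pdgfc, whose product binds the Pdgfra receptor, rose from 3.59 ± 0.29 to 5.58 ± 0.20 FPKM (edgeR adjusted p = 0.00052 for a log2 fold change of 0.60 ± 0.10, SE). Pdgfa, the main ligand for precursors, was at 2.82 and 2.69 FPKM in ctrl and at 3.48 and 3.32 FPKM in shRybp and did not pass (edgeR adjusted p = 0.162 for a log2 fold change of 0.26). Pik3r1, the regulatory subunit gene of the kinase downstream of the receptor, fell by 0.97, and the Hedgehog receptor gene Ptch1 and the adaptor gene Gab1 fell by 0.29 and 0.26 on the log2 scale.

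Markers of other cells were read beside these values. The shares over all genes tested, 16.7% that fell and 16.3% that rose, stand beside their counts. Of 9 astrocyte markers tested all 9 fell, with a median log2 fold change of -1.01, led by Apoe (-2.61), Gfap (-1.83) and Aqp4 (-1.25). The summed level of the 10 astrocyte markers in the table was 618 to 634 FPKM in ctrl and 249 to 268 FPKM in shRybp. Of 7 neuron markers 3 fell (Dcx, Mapt and Snap25) and 1 rose (Syt1), while Tubb3 had a log2 fold change of 0.20 (adjusted p in edgeR 0.22), with summed levels of 91.9 to 93.9 FPKM in ctrl and 76.0 to 81.6 FPKM in shRybp. Of 9 progenitor markers 4 fell, Slc1a3 (-0.67), Fabp7 (-0.61), Msi1 (-0.57) and Sox2 (-0.46), and 2 rose, Nes (0.67) and Vim (0.27). Pax6 had a log2 fold change of -0.02 (adjusted p in edgeR 0.853). The summed levels of the progenitor markers were 3084 to 3350.3 FPKM in ctrl and 2541 to 2629.7 FPKM in shRybp. The call of Snap25 was lost in DESeq2, in each of the limma fits, without TMM factors and without each of ctrl replicate 1, ctrl replicate 2 and shRybp replicate 2, that of Vim without ctrl replicate 2 or shRybp replicate 2, and that of Fabp7 under quantile normalization in limma. The part of a changed makeup of the cultures in the falls of the precursor genes was not tested.

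Pdgfra is also made by fibroblasts and Cspg4 by pericytes, so their markers were read as well. Beside their counts stand the shares over all genes tested, 16.7% that fell and 16.3% that rose. Of 10 fibroblast and meningeal markers 3 were in the table, of which Fbln1 (1.18) and Foxc1 (0.47) rose and Col6a1 (-0.53) fell, with a summed level of 11.2 to 12.4 FPKM in ctrl and 17.2 to 19.7 FPKM in shRybp. The calls of Foxc1 and Col6a1 were lost in DESeq2, in each of the limma fits and without ctrl replicate 2, that of Foxc1 also without shRybp replicate 2 and that of Col6a1 also without shRybp replicate 1 and without TMM factors. Of 10 pericyte and smooth muscle markers 3 were in the table, with a summed level of 2.18 to 2.22 FPKM in ctrl and 3.07 to 3.36 FPKM in shRybp, and Acta2 (0.69), the contractile actin gene, rose. The call of Acta2 was lost in DESeq2 and without ctrl replicate 2 or shRybp replicate 1. The defining genes Col1a1, Col1a2, Col3a1, Pdgfrb and Kcnj8 were not in the table and so were not analysed here. The summed levels of both lists were higher in shRybp, where Pdgfra was lower. The part of such cells in the levels of Pdgfra and Cspg4 was not tested. The 2 endothelial markers in the table, Flt1 and Kdr, summed to 0.558 to 0.765 FPKM in ctrl and 0.679 to 0.689 FPKM in shRybp and were too low to test.

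**Figure D4:**
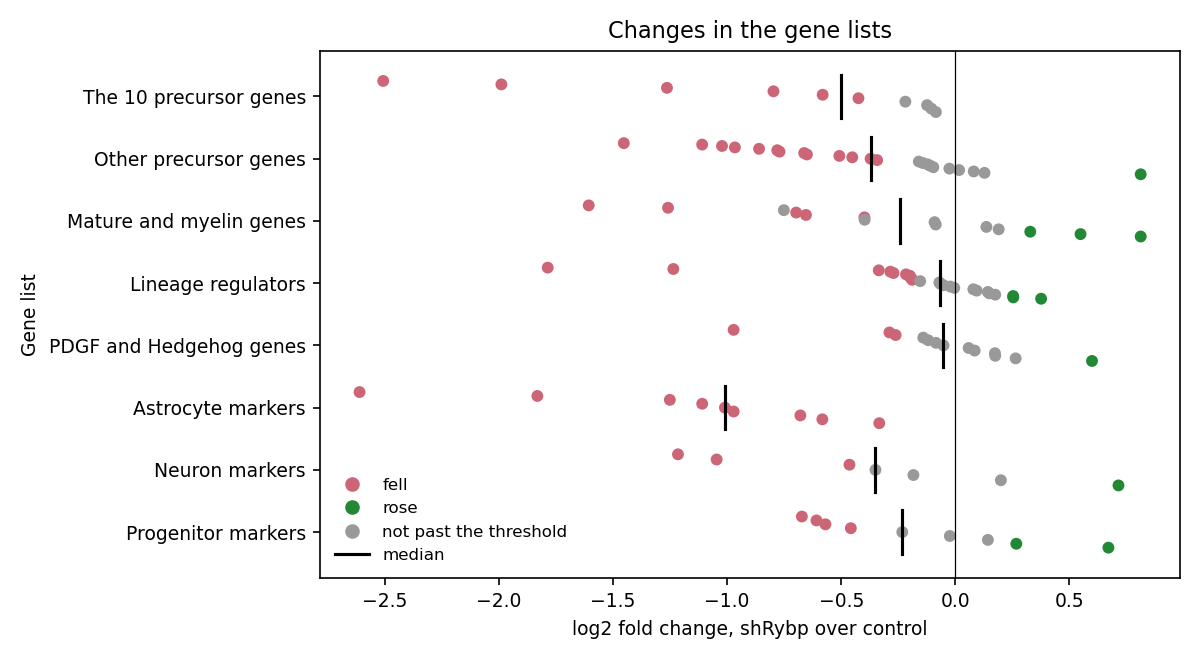
The log2 fold change of every tested gene of 8 lists, shRybp over ctrl, in red where it fell, green where it rose and grey where it did not pass the threshold, with black lines at the medians. The 10 precursor genes have a median of -0.50 and no rise, the other precursor genes one of -0.37, and the astrocyte markers one of -1.01.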

How the data were processed

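RNA was measured by sequencing in 2 ctrl and 2 shRybp libraries. The deposited table holds raw read counts per gene and library, left without normalization by the authors, and FPKM values that the authors scaled by gene length and library size, per the file headers. The submitters' processing notes name mm10 as the build. The aligner, counting program and strand setting were, in the sources used here, not given. Every listed gene has at least 40 counts over the 4 libraries. Replicates differed by more than counting noise (chi-square per degree of freedom 5.30 and 4.49) and were kept apart.

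The groups were compared with edgeR 4.0.16 in R 4.3.3 (TMM factors, quasi-likelihood fit, two-sided test, no covariates) on 12062 genes whose FPKM averaged 1 or more, p-values were adjusted by Benjamini-Hochberg over all of them, and the threshold was 0.05. The fit was tested on simulated data. Rose and fell are used of genes past this threshold. SE is the absolute log2 fold change over the square root of F, and intervals are 95%. Alternatives used DESeq2 1.42.0, limma 3.58.1 on log2(FPKM + 1) or log2(FPKM + 0.1), other scalings and filters, a replicate block and each library left out. Loci, strands and overlaps came from GENCODE release M21, and promoters from RefSeq. All members were to be named, and of each further list the 3 largest passing changes in each direction, its defining genes, and genes that overlap a member. Defining genes are the first 3 of a list. Some genes of the lists are not reported here and were left out of the counts of their lists. Apod, Ermn, Mag, Mal, Mobp, Csf1r, Fcrls, Flt1 and Kdr were named after their values were seen. Members and lists were chosen with earlier results of these data known.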

Additional observations from a re-analysis of the deposited data

How the results depend on the processing

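Across 13 alternatives the number of precursor genes that fell was 6 or 7, none rose, and their median log2 fold change lay between -0.54 and -0.46. Of 130 fold changes of single members under an alternative, 127 kept their direction and side of the threshold, and the other 3 were those of Cspg4, past the threshold with the replicate block (log2 fold change -0.22), without ctrl replicate 1 and without shRybp replicate 2. With each library left out in turn, Cspg4 ranged from -0.40 to -0.015 and Sox10 from -2.19 to -1.78, and over all genes 1296 to 1640 rose, beside 1970 with all 4 libraries. Without shRybp replicate 2 the rises numbered 1296. The median of the members was -0.62 between shRybp 1 and ctrl 2 alone and -0.52 between shRybp 2 and ctrl 1 alone, which were added after the data were seen. The cause of these differences was not tested. The replicate numbers are shared by the groups but nothing says that they pair libraries. The differences between replicates 1 and 2 had a Pearson correlation of 0.13 between the groups across 12062 genes, and with the block 2676 genes rose and 2652 fell, beside 1970 and 2013. Of 286 counts of the other lists 43 moved by more than 1.5 times, and of 612 fold changes of the other named genes 46 lost the call and 4 gained one. Sox10, with 63 to 313 counts, is the member with the fewest reads and the largest error.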
